A study of Mus musculus with 6 samples.

Results

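The aminoacyl-tRNA synthetases are the enzymes that join each amino acid to its transfer RNA before protein synthesis. The 37 genes described here were taken from the read count table by symbol, as every gene whose name has the form of 1 letter followed by ars or ars2, together with Eprs, Farsa and Farsb, out of 44792 gene symbols. Of these, 20 encode the enzymes of the cytosol and 17, with symbols ending in 2, those of the mitochondrion. The rule used no measured value, but the gene set and the lists below were chosen with earlier results of these data known. Messenger RNA was measured in hearts of 6 C57BL/6 mice that were 3 months old and received no treatment. The genotype was wild type in 3 hearts and the cTnI R193H mutation in the other 3, where cTnI is cardiac troponin I, the subunit that holds the thin filament of heart muscle inactive between beats. The labels do not say how the mutation was introduced, on how many alleles, or the sex of the mice. They call the hearts biological repeats. All hearts expressed genes of heart muscle, since 10 marker genes summed to between 44578 and 53306 CPM. The sum does not identify the chamber. These sums were lower in each R193H heart (48300, 44578 and 49277 CPM) than in any wild type heart (51390, 53306 and 50127 CPM). Of the 10 markers, 8 had lower means in R193H hearts and 2 had higher means. Wholly below wild type lay 5, beside 5.8% of all genes, and wholly above lay 1, beside 6.02%. The part of these markers in the results below was not tested. CPM is a read count scaled to a common library size, here with trimmed mean of M values (TMM) factors applied to the library totals. Totals per heart ranged from 14736067 to 21852210 counts, and the 37 genes together took 0.125% to 0.143% of them.

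Cells keep separate synthetases for the cytosol and for the mitochondrion, and both sets are encoded in the nucleus. A few genes depart from this rule. Kars and Gars each make a cytosolic and a mitochondrial enzyme from 1 gene, Eprs joins the glutamate and proline enzymes in 1 protein, and Farsa and Farsb encode the subunits of the cytosolic phenylalanine enzyme. No mitochondrial glutamine enzyme exists in the set, because mitochondria charge that transfer RNA with glutamate through Ears2 and then amidate it. Several cytosolic enzymes sit in a multi-synthetase complex, and many cytosolic genes are targets of ATF4, the transcription factor of the amino acid response. Inherited defects of mitochondrial synthetases, such as those of AARS2, can cause cardiomyopathy, and heart muscle depends on the respiratory chain subunits that mitochondria translate.

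Promoter letters of the synthetase genes were searched for short motifs of known regulators. RefSeq windows on GRCm38.p6, from 250 bases before to 50 bases after the start of transcription, were present for 27 of the 37 genes (13 cytosolic genes with 13 windows and 14 mitochondrial genes with 15 windows). Wars was among the genes with no entry. The letters TGATGNAA, the core of elements to which ATF4 binds together with C/EBP factors, were searched on both strands. They were in 5 of the 13 cytosolic windows (38.5%), in 0 of the 15 mitochondrial windows and in 3.97% of all 32851 windows. In a list of 26 genes of the ATF4 pathway, 9 of 28 windows (32.1%) held them, which serves as a scale for the search. Some genes of that list had no window and some had more than 1. The letters GCATGCGC, the core of the site of nuclear respiratory factor 1 (NRF1), a regulator of mitochondrial genes, were in 0 cytosolic windows, 3 mitochondrial windows (20%) and 2.71% of all windows. A match is a description of the letters and shows no binding. Of the other letters searched, CCGGAAG (an ETS site) was in 38.5% of cytosolic, 26.7% of mitochondrial and 8.86% of all windows, CCAAT in 53.8%, 40% and 37.4%, and the E-box CACGTG in 30.8%, 6.67% and 7.15%. The interferon-stimulated response element was in 7.69%, 0% and 3.44%, and the gamma-activated site (TTCNNNGAA) in 15.4%, 6.67% and 8.3%. The 8 promoters with TGATGNAA or GCATGCGC are printed below. Each of these motifs was found in 1 of the 2 sets alone. So was the interferon-stimulated response element, for which no promoter is printed. Each stretch covers 150 bases before and 20 bases after the start of transcription, 5′ to 3′ on the strand of the gene, with the motif in capitals.

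The 5 cytosolic stretches with TGATGNAA or its reverse complement lie at chr8:111033692-111033861 (+ strand, Aars), chr6:55037851-55038020 (+, Gars), chr13:49681980-49682149 (+, Iars), chr15:11399639-11399808 (-, Tars) and chr4:129189753-129189922 (+, Yars).
Aars: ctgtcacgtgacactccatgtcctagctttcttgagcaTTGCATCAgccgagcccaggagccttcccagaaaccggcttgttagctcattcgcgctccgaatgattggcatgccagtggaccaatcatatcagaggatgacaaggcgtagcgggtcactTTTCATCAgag
Gars: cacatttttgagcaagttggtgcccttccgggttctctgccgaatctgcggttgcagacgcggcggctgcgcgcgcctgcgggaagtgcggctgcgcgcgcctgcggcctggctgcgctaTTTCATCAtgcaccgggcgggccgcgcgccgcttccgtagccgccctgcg
Iars: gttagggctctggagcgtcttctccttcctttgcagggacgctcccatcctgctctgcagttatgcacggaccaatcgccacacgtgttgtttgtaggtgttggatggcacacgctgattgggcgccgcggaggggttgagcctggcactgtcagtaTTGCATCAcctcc
Tars: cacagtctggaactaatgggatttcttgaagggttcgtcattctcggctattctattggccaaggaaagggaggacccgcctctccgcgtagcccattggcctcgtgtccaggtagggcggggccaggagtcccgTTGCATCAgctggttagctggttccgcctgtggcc
Yars: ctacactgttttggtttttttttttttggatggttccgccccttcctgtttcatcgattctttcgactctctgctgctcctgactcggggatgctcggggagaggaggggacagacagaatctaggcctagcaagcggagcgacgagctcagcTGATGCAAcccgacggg

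The 3 mitochondrial stretches with GCATGCGC or its reverse complement lie at chr4:34614807-34614976 (+, Rars2), chr17:35667573-35667742 (-, Vars2) and chr3:99140940-99141109 (+, Wars2).
Rars2: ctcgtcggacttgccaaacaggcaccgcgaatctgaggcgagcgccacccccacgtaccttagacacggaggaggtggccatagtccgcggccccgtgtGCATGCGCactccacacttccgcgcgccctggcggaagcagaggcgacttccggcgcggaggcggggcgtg
Vars2: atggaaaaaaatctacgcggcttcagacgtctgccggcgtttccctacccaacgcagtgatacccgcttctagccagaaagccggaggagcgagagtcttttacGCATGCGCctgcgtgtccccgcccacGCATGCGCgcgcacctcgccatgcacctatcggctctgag
Wars2: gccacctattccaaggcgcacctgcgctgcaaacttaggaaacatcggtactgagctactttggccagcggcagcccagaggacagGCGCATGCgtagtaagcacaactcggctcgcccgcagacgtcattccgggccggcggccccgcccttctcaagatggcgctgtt

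All 37 genes were expressed in every heart and entered the test. Levels between genes were compared as CPM per kilobase of the principal GENCODE transcript, averaged over the 6 hearts. Cytosolic synthetases ranged from 3.14 CPM per kilobase for Cars, the cysteine enzyme, to 54.1 for Kars, the lysine enzyme, with a median of 14.8. Next to Kars stood Wars, the tryptophan enzyme, at 29.6 and Nars, the asparagine enzyme, at 25.8. Mitochondrial synthetases ranged from 0.144 CPM per kilobase for Wars2 to 18.6 for Fars2, the phenylalanine enzyme, with a median of 6.11. Cars2 at 17.3 and Tars2, the threonine enzyme, at 15.8 followed Fars2. Among the 14 amino acids with 1 cytosolic and 1 mitochondrial gene in the set, the cytosolic gene had the higher level in 11. The exceptions were cysteine, threonine and tyrosine, where the mitochondrial gene was higher. For cysteine the cytosolic level was 0.181 of the mitochondrial level. The widest gap was at tryptophan, where the level of Wars was 206 times that of Wars2. Wars2 had 8 to 24 counts per heart (75 in all), so its level rests on few reads. The length of the transcript that was read in these hearts is not known, and the level of Mars2, with an annotated transcript of 11294 bases, depends on it most.

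**Figure D1:**
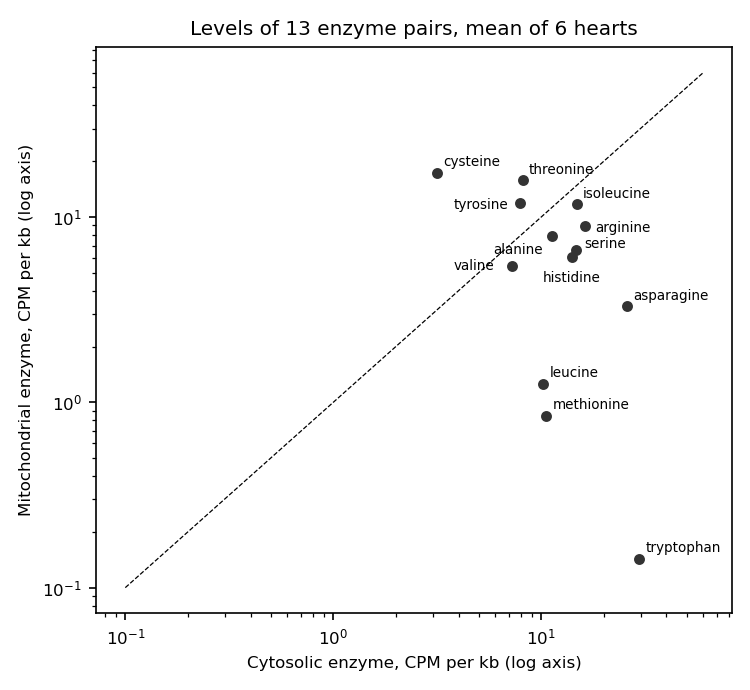
Level of the cytosolic enzyme (x axis) against the mitochondrial enzyme (y axis) in CPM per kilobase, on log axes, for 13 amino acids, as the mean of 6 hearts; the dashed line marks equal levels. Cysteine, threonine and tyrosine lie above the line, and tryptophan lies farthest below it, at 29.6 and 0.144.

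The comparison of genotypes asks whether messenger RNA of these enzymes differed in R193H hearts. No member passed the test, and the medians of both sets lay near 0. The median log2 fold change (R193H over wild type) was -0.012 over the 20 cytosolic genes and -0.031 over the 17 mitochondrial genes, against -0.00036 over all 14370 genes tested. In edgeR's quasi-likelihood test, 0 of the 37 genes passed an adjusted p of 0.05, where 0.00696% of all genes did (1 gene). DESeq2 and limma-voom also called 0 of the 37. At an unadjusted p under 0.05 there were 2 of 37 genes, Wars and Sars2, both higher, and 0 that were lower. Over all genes these shares were 5.73% in either direction, 3.22% higher and 2.51% lower. The 3 R193H hearts lay wholly above the 3 wild type hearts for 2 members (Sars2 and Yars), beside 6.02% of all genes. They lay wholly below for 3 members (Mars, Iars and Cars), beside 5.8% of all genes, so that 5 of 37 did not overlap, beside 11.8%. Yars cleared the wild type hearts by less than 0.1 CPM. A lower mean in R193H hearts was found for 22 of the 37 genes, beside 50.1% of all genes, but this split depends on scaling. With unadjusted library sizes the all-gene median was 0.13, 4 members were below 0, and 16 of 37 lay above that median, beside 15 with TMM scaling.

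**Figure D2:**
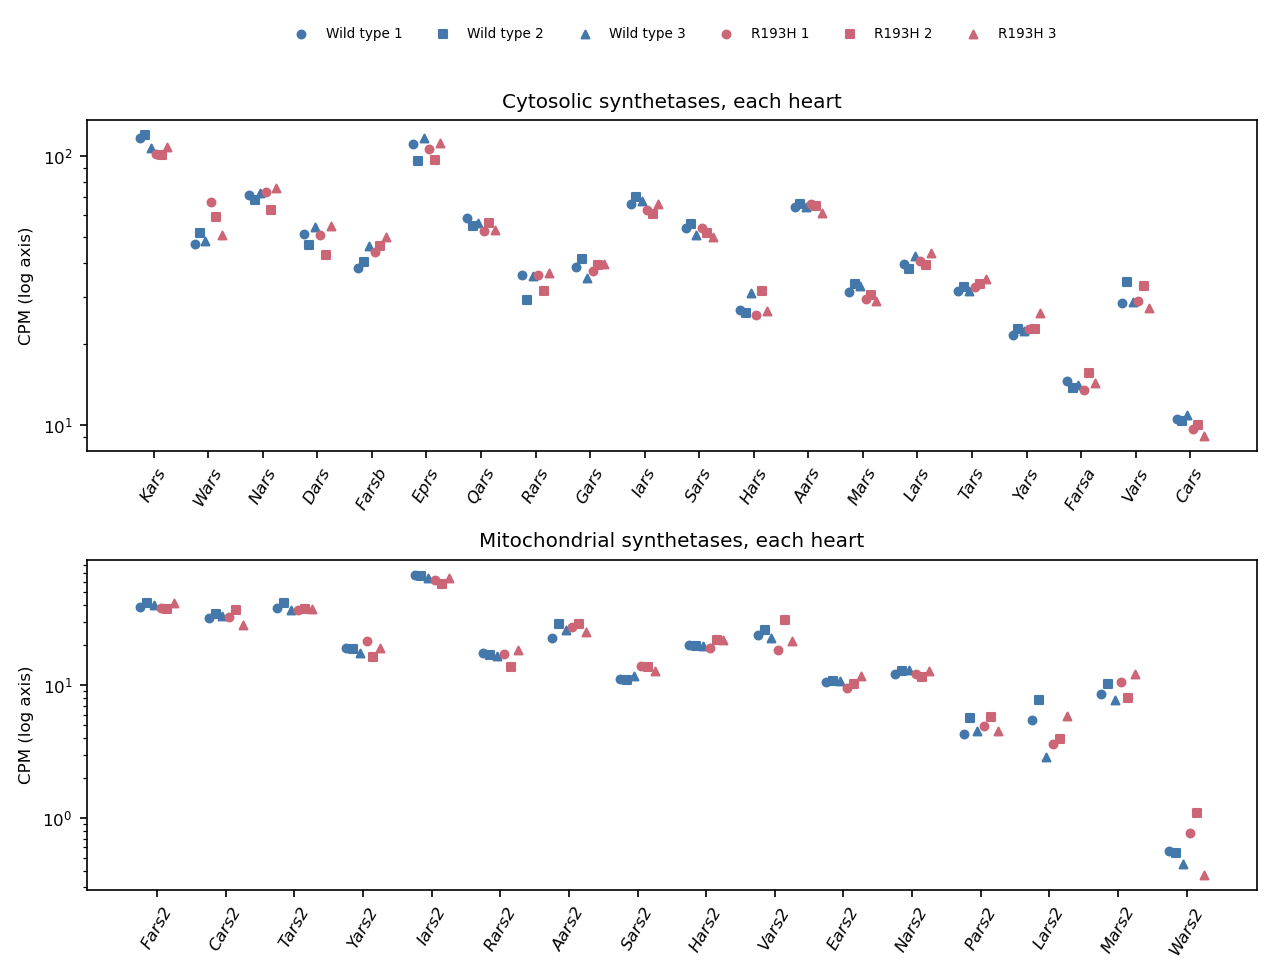
CPM of 20 cytosolic and 16 mitochondrial synthetases in each of the 6 hearts on a log axis, wild type in blue and R193H in red, with genes ordered by their level per kilobase. For most genes the 2 colours overlap, and Wars2, Lars2, Mars2 and Vars2 are spread most widely.

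The differences among the members were small. The median absolute log2 fold change was 0.061 over the members and 0.11 over all genes tested. The 95% confidence interval of the fold change lay within 1.5-fold in both directions for 34 of the 37 members (91.9%), beside 62.2% of all genes. This held for all 20 cytosolic genes and for 14 of 17 mitochondrial genes, the exceptions being Lars2, Mars2 and Wars2. Such shares depend on the width of the intervals, and the median SE was 0.106 over the members and 0.145 over all genes. The part of read counts in this contrast was not tested. Hearts of 1 genotype also differed little in these genes. The median within-group SD of log2 CPM was 0.11 over the members and 0.17 over all genes. This SD was 0.56 for Lars2, the highest of the members. It was 0.043 for Aars, the alanine enzyme, which is below the members' median and so shows a low spread. For Aars, CPM was 64.4, 66.2 and 64.5 in wild type replicates 1, 2 and 3 and 66.1, 64.8 and 61.3 in R193H replicates 1, 2 and 3. These hearts interleave, and the log2 fold change of Aars was -0.022 (95% confidence interval -0.18 to 0.14). Aars shares exon bases with another gene on the same strand, as given below.

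**Figure D3:**
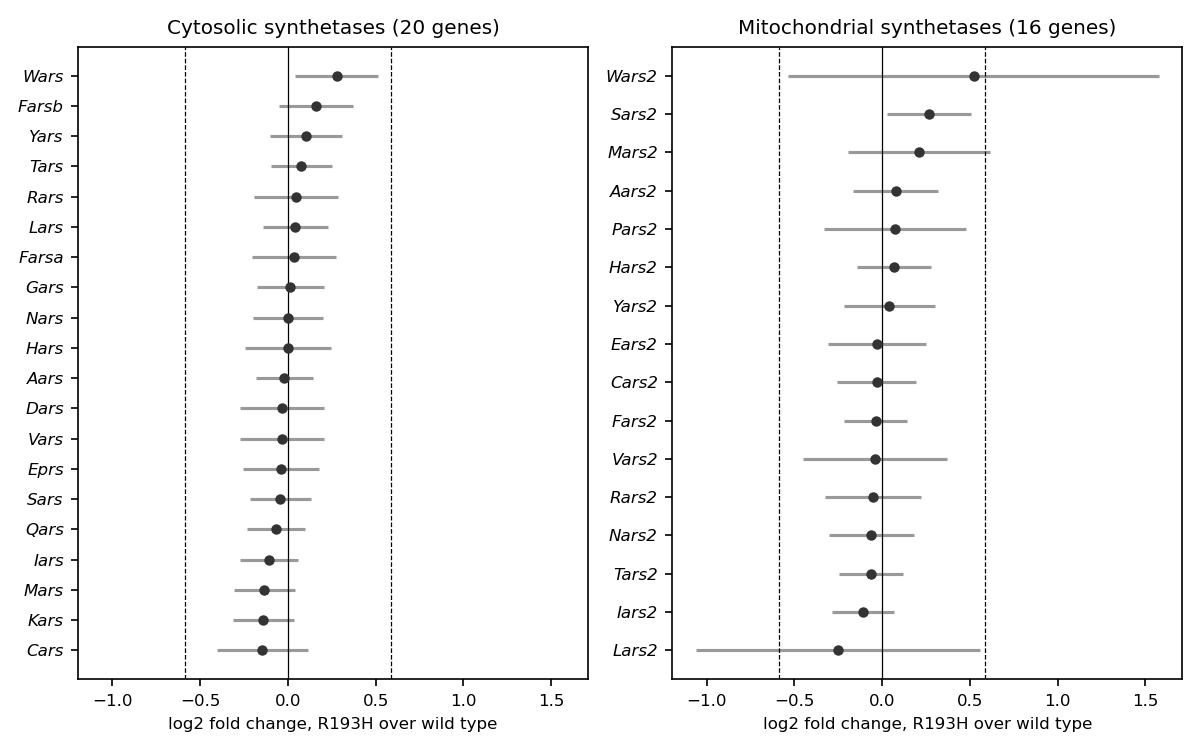
Log2 fold change of R193H over wild type (x axis) for 20 cytosolic and 16 mitochondrial synthetases, with bars for 95% confidence intervals and dashed lines at 1.5-fold. The intervals of Wars2, Mars2 and Lars2 cross a dashed line, and those of the other 33 genes shown do not.

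Wars had the smallest p of the members. Its protein charges the tryptophan transfer RNA of the cytosol, and the gene is a known target of interferon gamma. Wars (GRCm38.p6 chromosome 12, 108860030 to 108894175) measured 46.8, 51.5 and 48.1 CPM in wild type replicates 1, 2 and 3. In R193H replicates 1, 2 and 3 it measured 67.4, 59.1 and 50.9 CPM. R193H replicates 1 and 2 stood above every wild type heart, and R193H replicate 3 lay within the wild type range. Group means were 48.8 ± 2.39 and 59.1 ± 8.23 CPM (SD, n = 3 each), and the log2 fold change was 0.28 (SE 0.11, edgeR adjusted p = 0.794, unadjusted 0.026). Without R193H replicate 1 it was 0.17.

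The mean of a list of interferon gamma response genes was, like Wars, highest in R193H replicate 1 and lowest of the R193H hearts in replicate 3. This list of 20 genes was drawn up knowing that interferon genes were higher in these hearts, so it is no independent evidence. All 20 had higher means in R193H hearts, with a median of 1.09, 0 passed the threshold, and 15 did not overlap between groups, beside 6.02% of all genes. With the wild type mean set to 0, the mean log2 CPM of the list stood at 1.62, 0.79 and 0.39 in R193H replicates 1, 2 and 3, and from -0.10 to 0.14 in the wild type hearts. Irf1, the interferon regulatory factor first in order of p, measured 32.1, 30.6 and 30.1 CPM in wild type and 46.0, 43.8 and 36.7 CPM in R193H replicates 1, 2 and 3. All R193H hearts were above all wild type hearts for Irf1, and its log2 fold change was 0.45 (SE 0.098, adjusted p = 0.559). Ciita, the activator of class II genes, and the proteasome subunit gene Psmb9 followed at 1.11 (SE 0.26) and 1.07 (SE 0.24). Macrophage markers were also higher in R193H hearts, in all 9 of the 10 listed that were tested (median 0.53, 4 wholly above wild type beside 6.02% of all genes, 0 called). They summed to 357, 365 and 420 CPM in wild type and to 558, 621 and 435 CPM in R193H replicates 1, 2 and 3. The highest macrophage sum was in R193H replicate 2, while Wars and the interferon list were highest in R193H replicate 1. In whole tissue, more cells of a type and more RNA per cell cannot be told apart, and the part of either list in the value of Wars was not tested.

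**Figure D4:**
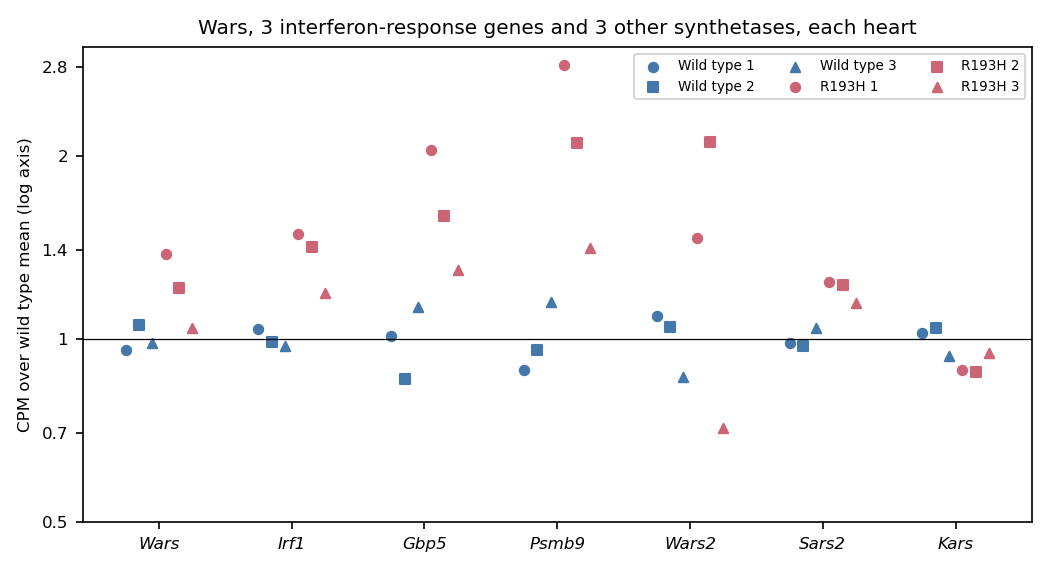
CPM of Wars, of 3 interferon-response genes and of Wars2, Sars2 and Kars in each heart, divided by the wild type mean, on a log axis; circles, squares and triangles are replicates 1, 2 and 3. For Wars, Irf1, Gbp5 and Psmb9, R193H replicate 1 is the highest heart and R193H replicate 3 the lowest of the R193H hearts, as also for Sars2, and not for Wars2 or Kars. Not all 20 genes of the interferon list have this order, and some are lowest of the R193H hearts in replicate 2.

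The other cytosolic genes with small p lay on both sides of 0. Kars measured 116, 119 and 107 CPM in wild type and 102, 101 and 108 CPM in R193H replicates 1, 2 and 3. R193H replicate 3 overlapped wild type replicate 3, and the log2 fold change of Kars was -0.14 (SE 0.078, adjusted p = 0.89). Kars-ps1, a pseudogene of it, had 0 counts in every heart. Farsb, the beta subunit of the phenylalanine enzyme, measured 38.4, 40.4 and 46.0 CPM in wild type and 43.8, 46.0 and 49.9 CPM in R193H replicates 1, 2 and 3. The groups overlapped, with a log2 fold change of 0.16 (SE 0.094), while its partner subunit Farsa stood at 0.034 (SE 0.11).

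Mars, the methionine enzyme, which also charges the initiator transfer RNA, measured 31.3, 33.5 and 32.8 CPM in wild type and 29.5, 30.5 and 29.0 CPM in R193H replicates 1, 2 and 3. All R193H hearts lay below the wild type hearts by a narrow margin, and its log2 fold change was -0.13 (SE 0.079, adjusted p = 0.893). Iars, the isoleucine enzyme, measured 66.3, 69.9 and 67.8 CPM in wild type and 62.8, 60.6 and 66.0 CPM in R193H replicates 1, 2 and 3 (log2 fold change -0.11, SE 0.074). Cars measured 10.6, 10.4 and 10.9 CPM in wild type and 9.71, 9.97 and 9.13 CPM in R193H replicates 1, 2 and 3 (log2 fold change -0.15, SE 0.12). Both were lower in each R193H heart than in any wild type heart, and neither passed the threshold. The remaining 14 cytosolic genes lay between -0.068 for Qars, the glutamine enzyme, and 0.10 for Yars, the tyrosine enzyme. Among these, Eprs measured 110, 95.1 and 116 CPM in wild type and 106, 95.9 and 111 CPM in R193H replicates 1, 2 and 3 (log2 fold change -0.040, SE 0.097). Gars, for glycine, measured 38.7, 41.2 and 35.2 CPM in wild type and 37.3, 39.3 and 39.4 CPM in R193H replicates 1, 2 and 3 (log2 fold change 0.012, SE 0.085). The genotypes overlapped for both. Nars measured 71.7, 68.2 and 72.3 CPM in wild type and 73.4, 62.8 and 75.8 CPM in R193H replicates 1, 2 and 3, and its group means were both 70.7 CPM (log2 fold change -0.0016, SE 0.089).

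Of the mitochondrial enzymes, Sars2 was the 1 gene with an unadjusted p under 0.05. It encodes the serine enzyme (chromosome 7, 28741957 to 28753879) and measured 11.1, 11.0 and 11.7 CPM in wild type and 13.9, 13.8 and 12.9 CPM in R193H replicates 1, 2 and 3. All R193H hearts stood above all wild type hearts. The log2 fold change was 0.27 (SE 0.11, edgeR adjusted p = 0.816, unadjusted 0.033), and it stayed between 0.25 and 0.31 when any 1 heart was left out. Sars, its cytosolic counterpart, measured 54.1, 55.8 and 50.6 CPM in wild type and 53.9, 51.7 and 49.9 CPM in R193H hearts, which overlap. Its log2 fold change was -0.044 (SE 0.078). Serine and methionine were the pairs whose 2 enzymes differed most in fold change, by -0.31 and -0.34 as cytosolic minus mitochondrial. They were picked for that difference, which was not tested.

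Mars2 measured 8.59, 10.3 and 7.76 CPM in wild type and 10.6, 7.96 and 12.2 CPM in R193H replicates 1, 2 and 3. R193H replicates 1 and 3 stood above every wild type heart, and R193H replicate 2 lay within the wild type range. The log2 fold change of Mars2 was 0.21 (SE 0.18). Leaving out a replicate 3 gave 0.073 (R193H) or 0.12 (wild type), and leaving out a replicate 2 gave 0.37 (R193H) or 0.33 (wild type). Lars2, the leucine enzyme, had the widest spread within genotypes of all members. It measured 5.46, 7.70 and 2.91 CPM in wild type and 3.60, 3.93 and 5.87 CPM in R193H replicates 1, 2 and 3. The wild type hearts alone covered the range of all 6, the log2 fold change was -0.25 (SE 0.35), and it ran from -0.56 without wild type replicate 3 to 0.11 without wild type replicate 2. Wars2 measured 0.568, 0.546 and 0.451 CPM in wild type and 0.764, 1.10 and 0.373 CPM in R193H replicates 1, 2 and 3. R193H replicate 3 was the lowest of all, and the log2 fold change of Wars2 was 0.52 (SE 0.47), or 0.14 without R193H replicate 2 and 0.85 without R193H replicate 3. At 8 to 24 counts per heart, the interval from -0.53 to 1.58 holds both 0 and 1 on the log2 scale.

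The remaining 13 mitochondrial genes lay between -0.11 for Iars2 and 0.077 for Aars2. Iars2 measured 68.3, 67.0 and 63.9 CPM in wild type and 62.4, 57.6 and 64.8 CPM in R193H replicates 1, 2 and 3 (log2 fold change -0.11, SE 0.078). Tars2 measured 38.0, 41.8 and 36.6 CPM in wild type and 36.9, 37.3 and 37.3 CPM in R193H replicates 1, 2 and 3 (log2 fold change -0.062, SE 0.081). Hars2, the histidine enzyme, measured 20.2, 19.8 and 19.8 CPM in wild type and 19.1, 21.8 and 21.7 CPM in R193H replicates 1, 2 and 3 (log2 fold change 0.068, SE 0.093). The genotypes overlapped for each of these. Cars2 measured 32.1, 34.2 and 33.5 CPM in wild type and 32.5, 36.7 and 28.6 CPM in R193H replicates 1, 2 and 3 (log2 fold change -0.031, SE 0.10). Fars2 measured 38.7, 41.7 and 40.0 CPM in wild type and 38.3, 37.4 and 41.7 CPM in R193H replicates 1, 2 and 3 (log2 fold change -0.036, SE 0.081). For Cars2 the lowest and highest hearts were both R193H. Vars2, the valine enzyme, had 1 high heart. It measured 24.1, 26.3 and 22.6 CPM in wild type and 18.4, 31.0 and 21.7 CPM in R193H replicates 1, 2 and 3, so that R193H replicates 1 and 2 were the lowest and the highest of all 6 (log2 fold change -0.040, SE 0.18). In GENCODE vM21, 14 genes of the set share exon bases with another annotated gene, and the count table is not known to use strand. These include Hars with Hars2, which share 195 bases on opposite strands, Mars with the ATF4 pathway gene Ddit3 (68 bases), and Iars2 with Rab3gap2 (2034 bases). Aars and Exosc6 share 1326 bases on the same strand, which a strand setting would not separate. Counts of all these genes can hold reads of the other gene.

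Structural classes of the enzymes had medians near 0. The class I enzymes, with the nucleotide-binding fold of dehydrogenases, had a median of -0.033 over 18 genes, and the class II enzymes, built on an antiparallel sheet, a median of -0.0016 over 18 genes, with the bifunctional Eprs left out. The 8 enzymes of the multi-synthetase complex (Eprs, Iars, Lars, Mars, Qars, Rars, Kars and Dars) had a median of -0.054, with 6 lower means, 2 that lay wholly below wild type (beside 5.8% of all genes) and 0 past the threshold. Its non-enzyme scaffolds Aimp1, Aimp2 and Eef1e1 stood at -0.047 (SE 0.092), 0.070 (SE 0.11) and 0.18 (SE 0.16). The 5 genes with TGATGNAA in the promoter stood at -0.022 (Aars), 0.012 (Gars), -0.11 (Iars), 0.076 (Tars) and 0.10 (Yars). Those with GCATGCGC stood at -0.053 (Rars2), -0.040 (Vars2) and 0.52 (Wars2).

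Genes around the synthetases were read in the same way. In the ATF4 pathway, 25 of 26 listed genes were tested, 16 had higher and 9 lower means, 0 passed the threshold and the median was 0.071. Atf4 itself measured 80.1, 79.0 and 90.3 CPM in wild type and 79.2, 78.5 and 81.2 CPM in R193H replicates 1, 2 and 3 (log2 fold change -0.062, SE 0.080). The hearts overlapped for Atf4, and for Asns, the asparagine synthetase gene that is a common readout of ATF4 (0.10, SE 0.34). Atf5, a related factor, was first in order of p. It measured 35.5, 36.1 and 38.1 CPM in wild type and 41.5, 47.0 and 41.2 CPM in R193H replicates 1, 2 and 3, with all R193H hearts above (log2 fold change 0.24, SE 0.085, adjusted p = 0.752). Nupr1, a stress-induced chromatin protein, and Atf3 stood at 0.58 (SE 0.25) and -1.03 (SE 0.46).

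Kinases and subunits that act on eIF2, the initiation factor through which uncharged transfer RNA slows translation, had 8 higher and 6 lower means of 14 (median 0.022, 0 called). Eif2ak4, the kinase that senses uncharged transfer RNA, stood at -0.035 (SE 0.13) and was named outside the order of p. The interferon-induced kinase Eif2ak2 was first, at 0.29 (SE 0.13). Amino acid transporters had 11 lower and 5 higher means of 16 tested (18 listed; median -0.041, 0 called). Slc38a9, the lysosomal arginine sensor, measured 5.25, 5.15 and 5.36 CPM in wild type and 3.37, 3.52 and 4.14 CPM in R193H replicates 1, 2 and 3. All R193H hearts were below, with a log2 fold change of -0.51 (SE 0.17, adjusted p = 0.722). The glutamine transporter Slc38a3 stood at -0.27 (SE 0.10), and also did not overlap. These were the 2 of 16 that lay wholly below wild type, beside 5.8% of all genes, and 0 lay wholly above, beside 6.02%.

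**Figure D5:**
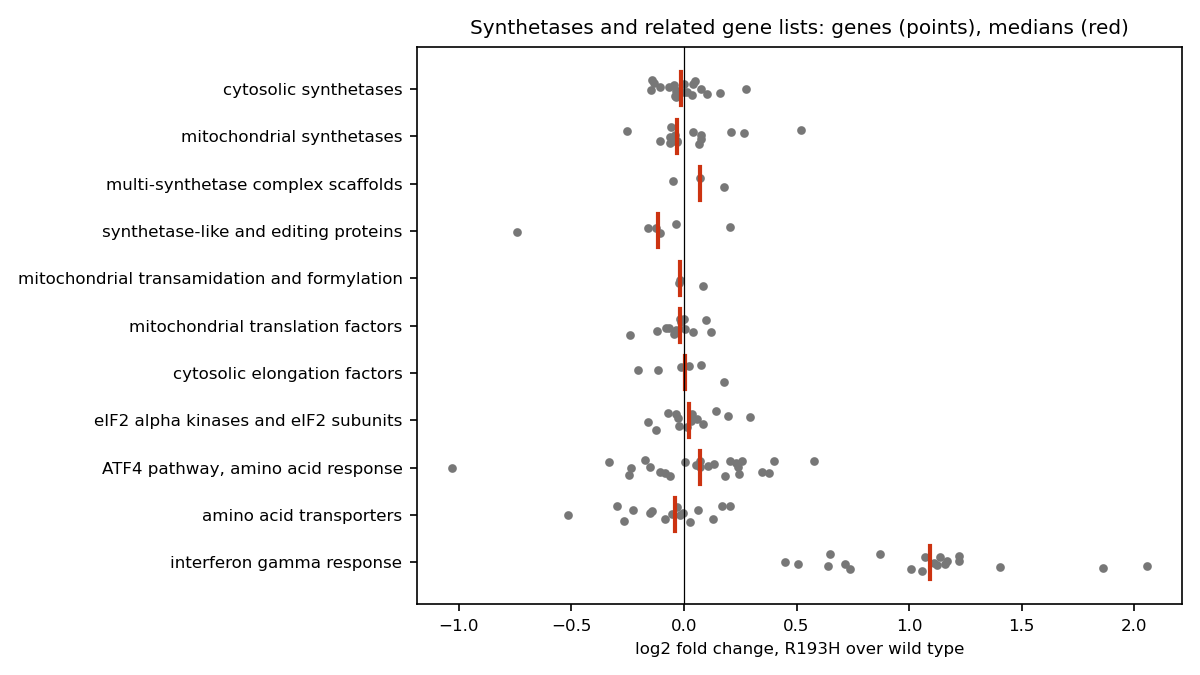
Log2 fold change of R193H over wild type (x axis) for each tested gene (points, shifted vertically at random) of 11 lists, with red bars at list medians. The synthetase medians of -0.012 and -0.031 lie close to 0, as do those of the translation factors, and the interferon gamma response list lies at 1.09.

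In the mitochondrion, 13 translation factors and modifiers of transfer RNA had a median of -0.018 (5 higher, 8 lower, 0 called), led by the ribosome-associated factor Guf1 at -0.24 (SE 0.10) and the elongation factor Gfm1 at -0.12 (SE 0.076). Qrsl1 and Gatc, which amidate glutamate on the glutamine transfer RNA, stood at -0.017 (SE 0.11) and -0.020 (SE 0.087), and the formylase Mtfmt at 0.083 (SE 0.17). Of 22 mitochondrial transfer RNAs, 10 were tested, 9 had lower means (beside 50.1% of all genes) and 8 lay wholly below wild type (beside 5.8%). TrnL1, a mitochondrial leucine transfer RNA and the 1 gene called over the whole table, measured 249, 238 and 224 CPM in wild type and 123, 120 and 129 CPM in R193H replicates 1, 2 and 3 (log2 fold change -0.94, SE 0.080). Its enzyme Lars2 overlapped between genotypes, as given above. TrnW and TrnM, for tryptophan and methionine, stood at -1.10 (SE 0.14) and -0.47 (SE 0.094). Their enzymes Wars2 and Mars2, at 0.52 (SE 0.47) and 0.21 (SE 0.18), overlapped between genotypes. The isoleucine and threonine transfer RNAs also had lower means, with Iars2 at -0.11 and Tars2 at -0.062. A relation between transfer RNA and enzyme was not tested. How reads were assigned to these short genes is not known.

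Cytosolic elongation factors, which serve the elongation step of protein synthesis, had 3 higher and 3 lower means of 6 (median 0.0042, 0 called). Of the 6, 2 lay wholly above wild type, beside 6.02% of all genes, and 1 wholly below, beside 5.8%. Among these were Eef1a1 (above) and its muscle form Eef1a2 (below), at 0.18 (SE 0.095) and -0.20 (SE 0.096). Of 6 synthetase-like and editing proteins, 5 had lower means (median -0.11, 0 called), among them Tarsl2, a second cytosolic threonine enzyme outside the naming rule of the set, at -0.16 (SE 0.085). Its level of 41.4 ± 3.15 CPM in wild type hearts was above the 31.8 ± 0.567 CPM of Tars, without scaling for length. The summed CPM of the 20 cytosolic synthetases was 957, 948 and 967 in wild type and 954, 927 and 967 in R193H replicates 1, 2 and 3. That of the 17 mitochondrial synthetases was 353, 376 and 346 in wild type and 349, 353 and 359 in R193H hearts. Both sums overlapped between genotypes, while summed atrial markers varied from 87.1 to 730 CPM and summed erythroid markers from 257 to 3095 CPM among the wild type hearts alone. Fibroblast markers summed to 2202 CPM in R193H replicate 2 and to between 1312 and 1552 CPM in the other hearts. Endothelial markers ranged from 1305 to 1577 CPM and lymphocyte markers from 3.03 to 13.8 CPM. Markers of acinar cells and skeletal muscle, with Prss2 and Myh4 at 0 counts, ranged from 51.7 to 249 CPM. Acta1 made up nearly all of that last sum, at 49.3 to 246 CPM. Tnni2, Mylpf and Tnnt3 had group means of at most 1.08 CPM.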

How the data were processed

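The authors deposited 1 table of raw whole-number read counts per gene symbol, with no normalization. Per the submitters' processing notes, HISAT2 2.0.4 and GRCm38 were used. The sources used here do not give the counting program, its annotation or its strand setting. Columns were matched to hearts by title and grouped by the genotype label; replicate numbers follow the order of listing and pair nothing. The design text calls the hearts biological repeats, and no 2 hearts agreed within sampling noise (chi-square per degree of freedom 13.6 to 45.7).

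The test was edgeR 4.0.16 under R 4.3.3 (filterByExpr, 14370 of 44792 symbols kept; TMM; robust quasi-likelihood test; Benjamini-Hochberg over all genes, threshold 0.05). SEs are the fold change divided by the root of F, and intervals use the test's degrees of freedom. List scores used log2 CPM with a prior count of 2. A gene with no reads could lie at up to 0.135 to 0.213 CPM, by heart (3 counts, counting error alone). Lengths are those of the longest principal coding transcript in GENCODE vM21, and positions and promoters come from RefSeq GRCm38.p6 (37 of 37 positions matched). The scripts were checked on simulated counts. Alternatives were other scalings and filters, DESeq2 1.42.0, limma-voom (limma 3.58.1), a non-robust fit and each heart left out.

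The members and lists were chosen with earlier results of these data known. Members were named with values by a rule: the 6 smallest p and the 3 highest levels in each set, Wars, Wars2, Lars2, Eprs, Gars and Kars, and the 2 pairs that differed most; other lists gave up to 3 genes by p. Aars, Aars2, Farsa, Qars, Rars2, Tars, Vars2, Yars, Atf4, Asns, Eif2ak4 and Gbp5 were named outside it. Some genes that enter the counts and medians are not reported here by name.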

Additional observations from a re-analysis of the deposited data

How the results depend on the processing

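No paired analysis was possible because the labels give the hearts no shared replicate numbers. No synthetase passed the threshold under any of the 15 alternatives, and the smallest adjusted p of any was 0.236, without R193H replicate 3. The count of genes called over the whole table, 1, was 0 without mitochondrially encoded genes, 38 without a filter, 40 with DESeq2, and 3 to 21 with 1 heart left out; the cause was not tested. Under library totals, which shifted the median of all genes by 0.13, 4 members were lower and the medians were 0.11 (cytosolic) and 0.10 (mitochondrial). With 1 heart left out the cytosolic median ran from -0.026 to 0.016 and the mitochondrial median from -0.040 to 0.028, above 0 without wild type replicate 2 (0.019) or R193H replicate 3 (0.028). In this section, signs were followed gene by gene only for the members named by the rule. Over all 37 members, those lower went from 22 in the main result to 4 under library totals. Among the members followed, signs turned there for Iars (0.017), Iars2 (0.017), Tars2 (0.066), Nars (0.12), Fars2 (0.089), Cars2 (0.10), Eprs (0.082) and Sars (0.084). Nars, near 0 in the main result, also turned with DESeq2 size factors (0.00065), upper quartile scaling (0.0013) and a CPM minimum (0.00027). With single hearts left out, signs turned for Nars (-0.047 to 0.079), Lars2 (-0.56 to 0.11), Eprs (-0.12 to 0.023), Gars (-0.048 to 0.065) and Cars2 (-0.12 to 0.062). Wars2 was removed by the CPM minimum. The 2 members with an unadjusted p under 0.05 fell to 0 without wild type replicate 1 or R193H replicate 1, and to 1 without wild type replicate 2, without a filter or with DESeq2. They numbered 5 under library totals (Farsb, Sars2, Tars, Wars and Yars), 3 without R193H replicate 2 (Mars2, Vars2 and Wars), and 2 without wild type replicate 3 (Farsb and Sars2). Depth limits Wars2 most.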
